A study of Oryza sativa Japonica Group with 12 samples.

Results

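The 7 rice genes described here encode WRKY transcription factors and were followed in roots after a foliar spray with piperonylic acid. They were taken by identifier from a table of 35833 genes, and the working names that came with the identifiers are WRKY24 (Os01g0826400), WRKY30 (Os08g0499300), WRKY53 (Os05g0343400), WRKY70 (Os05g0474800) and WRKY78 (Os07g0583700) for the 5 group I factors, and WRKY69 (Os08g0386200) and WRKY74 (Os09g0334500) for the 2 group III factors. The table lists identifiers without names or coordinates, so it holds nothing to check the names with. Of the 7 genes, 6 reached the minimum mean of 10 normalised counts over all libraries that a test required, as did 19207 genes of the table, and WRKY30 did not.

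The libraries came from roots of Nipponbare, a japonica cultivar, grown at 28 °C with 12 h of light and transplanted 5 days after germination. The treatment protocol gives a foliar spray at 13 days after transplanting, while the source names speak of a second treatment. The 4 groups, of 3 libraries each, were roots of plants sprayed with 300 µM piperonylic acid and collected 6 h later, mock-sprayed roots at 6 h, piperonylic acid roots at 24 h and mock-sprayed roots at 24 h. All sprays held 0.1% Tween 20, the 24 h plants were sampled at 14 days after transplanting, and each library pooled 4 plants. The series title speaks of roots inoculated with the root-knot nematode Meloidogyne graminicola, but no sample label states an inoculation. Piperonylic acid blocks cinnamate 4-hydroxylase, an early enzyme of phenylpropanoid synthesis. The 3′ mRNA protocol gives reads at the end of a transcript, and the values are reads divided by a size factor, called normalised counts here. The questions were whether the spray of the leaves altered these genes in the root at either time, and whether it did so differently at the 2 times.

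WRKY factors are plant transcription factors that bind W boxes in promoters of stress and defence genes. Group I factors carry a pair of WRKY domains, and several of them are phosphorylated by mitogen-activated protein (MAP) kinases during immune signalling. Group III factors carry 1 WRKY domain with a variant zinc finger, and many respond to pathogens and to nutrient stress. Many WRKY genes are induced quickly and briefly by wounding, microbial patterns and hormones.

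Library totals ran from 6302056 to 10254382 reads in 11 libraries and reached 20301774 in replicate 1 of the 24 h mock group. Markers listed for roots summed to between 38160 and 55570 normalised counts per library, and all 3 were above 10 in every library. The 6 markers listed for leaf tissue were detected in every library at a low summed level. At 6 h that sum was 424 to 613 in treated and 661 to 1673 in mock roots, and at 24 h it was 460 to 1412 in treated and 433 to 1389 in mock roots. The leaf marker sum was lower in treated than in mock roots at 6 h, as were 5 of the 7 WRKY genes described next. Within the treated libraries of 6 h the sum was 613, 439 and 424 in replicates 1, 2 and 3. The counts of these 5 genes rose in that order. In the mock libraries of 6 h the sum was 661, 1673 and 1145 in replicates 1, 2 and 3. There WRKY53, WRKY70, WRKY69 and WRKY74 rose from replicate 1 to 3, and WRKY24 was highest in replicate 3. The part of leaf material in the WRKY values was not tested. In pooled root tissue, fewer cells of a type and less RNA per cell cannot be told apart.

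At 6 h, 5 of the 7 genes had lower counts in each of the 3 treated libraries than in any mock library. They were WRKY24, WRKY53 and WRKY70 of group I and both group III genes, with log2 differences from -1.83 to -0.83. Over all genes tested, 9.73% had treated libraries entirely below the mock libraries at 6 h. None of the 6 tested genes passed a limma adjusted p of 0.05, the threshold that 1.66% of all tested genes met at 6 h, nor did any pass by edgeR, while 5 of them had an unadjusted limma p under 0.05, as did 14.8% of all genes tested. DESeq2 called 3 of them lower, and 679 of the 19207 genes tested in either direction.

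WRKY70, which in rice favours defence over growth after insect attack, had the largest of these differences. Its normalised counts were 84.6, 134 and 266 in treated roots at 6 h, against 388, 482 and 751 in mock roots. The highest treated library thus stayed below the lowest mock library. The group means were 162 ± 93.8 in treated and 541 ± 188 in mock roots (SD, n = 3 each). The log2 difference was -1.83 ± 0.43 (SE), or 3.56-fold lower, with a limma adjusted p of 0.0736. Of all genes tested, 0.578% had a lower log2 difference.

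WRKY69, the other gene close to the threshold, counted 148, 222 and 438 in treated roots at 6 h, against 599, 663 and 745 in mock roots. The mock libraries lay close together and the treated libraries were spread over a wide range, with means of 269 ± 151 in treated and 669 ± 73.3 in mock roots (SD, n = 3 each). The log2 difference was -1.45 ± 0.31 (SE), at a limma adjusted p of 0.0503.

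WRKY74, a gene of the phosphate starvation response in rice, counted 182, 252 and 438 in treated roots at 6 h, against 502, 544 and 755 in mock roots. The groups did not overlap, and replicate 3 was the highest library of each. The log2 difference was -1.11 ± 0.30 (SE), at a limma adjusted p of 0.105.

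WRKY24, a repressor of gibberellin and abscisic acid signalling in rice seeds, counted 45.2, 103 and 133 in treated roots at 6 h, against 189, 189 and 419 in mock roots. Its spread was wide, with mock replicate 3 far above the other mock libraries. The log2 difference was -1.51 ± 0.62 (SE), at a limma adjusted p of 0.299. WRKY53, a target of MAP kinases that acts in blast resistance and in brassinosteroid signalling, counted 625, 968 and 1176 in treated roots at 6 h, against 1302, 1581 and 1932 in mock roots. Its log2 difference was -0.83 ± 0.32 (SE), at a limma adjusted p of 0.261. This was the smallest of the 5 differences and its groups were still separate.

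WRKY78 and WRKY30 did not share the pattern. WRKY78, which acts in stem elongation and seed development in rice, counted 392, 477 and 441 in treated roots at 6 h, against 420, 420 and 466 in mock roots. Its values overlapped, and its log2 difference of 0.00 had a 95% interval from -0.20 to 0.20. WRKY30, linked in rice to fungal resistance and drought tolerance, was near the detection limit, with 3 to 6 reads per library in treated and 0 to 9 in mock roots at 6 h. A difference in WRKY30 was not detectable at this depth, and over all 12 libraries it had 85 reads. With no filter on low values its log2 difference was 0.21, with a 95% interval from -0.91 to 1.33.

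**Figure D1:**
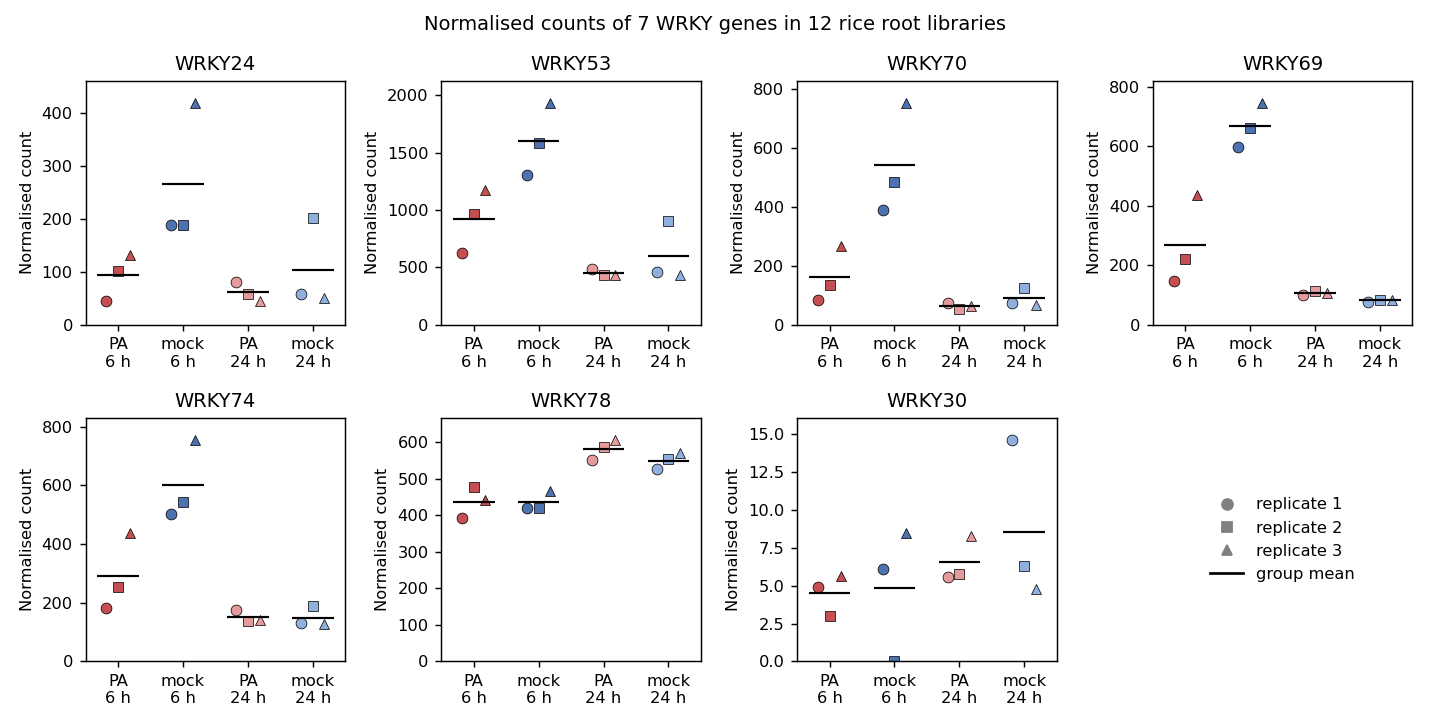
Normalised counts (y axis, linear from 0, own scale per gene) of the 7 WRKY genes in piperonylic acid (PA) and mock roots at 6 h and 24 h. Points are libraries, with the replicate as the marker shape, and lines are means of 3 libraries. For WRKY24, WRKY53, WRKY70, WRKY69 and WRKY74 the 3 treated libraries at 6 h lie below the 3 mock libraries.

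The replicate numbers of the titles bear on the 6 h comparison. Same-numbered treated and mock libraries deviated together at 6 h, with correlations of 0.305, 0.288 and 0.126 over all genes tested, so they were taken as pairs there. The pairs were thus chosen from the same values that the fit with the replicate block tests. Within these pairs the treated library was lower in 3 of 3 for each of the 5 genes, as any pairing gives when the groups are separate. The WRKY70 difference was -2.17, -1.83 and -1.49 on the log2 scale in pairs 1, 2 and 3, with a mean of -1.83 ± 0.34 (SD, n = 3 pairs). WRKY53 differed by -1.06, -0.71 and -0.72, with a mean of -0.83 ± 0.20 (SD, n = 3 pairs). In the limma fit with the replicate block, WRKY69, WRKY74 and WRKY70 were lower in treated roots, at adjusted p of 0.00361, 0.00502 and 0.00548. That fit called 802 of the 19207 genes tested. WRKY53 and WRKY24 did not pass, at 0.126 and 0.204. The source names give 3 treated samples another number. At 6 h they number the treated libraries 1, 1 and 2, against 1, 2 and 3 in mock roots. Mock replicate 3 then has no treated partner in its block, so it does not enter the blocked difference. With those numbers as the block none of the 5 passed, at adjusted p from 0.133 to 0.685.

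Replicate 3 of the treated group at 6 h had the highest count of its group for each of the 5 genes. Without it, WRKY70, WRKY69 and WRKY74 were lower in treated roots, at log2 differences of -2.26, -1.87 and -1.46 and limma adjusted p of 0.00511, 1.7e-05 and 0.0019. That refit called 741 of all genes tested. Without any of the other 11 libraries in turn, no member passed at 6 h. Without mock replicate 3 of 6 h, limma adjusted p was 0.21 for WRKY69, 0.241 for WRKY70 and 0.32 for WRKY74. With the 6 h libraries fitted alone, no member passed limma, and 152 of all genes tested did. The adjusted p of WRKY69, WRKY70 and WRKY74 was higher there than in the fit of all 4 groups.

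At 24 h the values of treated and mock roots overlapped in 6 of the 7 genes. No member passed limma or edgeR, where 0.115% of all tested genes passed limma, and 0 members had an unadjusted limma p under 0.05, as 6.11% of all genes tested had. No member had the treated libraries all below the mock libraries, as 5.59% of all tested genes did. WRKY69 was the exception in the other direction, with treated libraries all above the mock libraries, as in 6.17% of all tested genes.

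WRKY69 counted 98.7, 113 and 108 in treated roots at 24 h, against 77.0, 84.4 and 84.2 in mock roots. The groups were tight and separate. The log2 difference of 0.37 ± 0.31 (SE) had a limma adjusted p of 0.909 in the model that pools the spread over all 4 groups. WRKY69 did not pass limma with the 24 h libraries fitted alone either. WRKY74 counted 176, 139 and 141 in treated roots at 24 h, against 131, 188 and 126 in mock roots. Its log2 difference was 0.05 with a 95% interval from -0.63 to 0.73.

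In WRKY24, WRKY53 and WRKY70 of group I, 1 mock library stood high at 24 h. WRKY24 counted 80.6, 58.9 and 44.5 in treated roots, against 58.5, 203 and 50.7 in mock roots. WRKY53 counted 488, 438 and 429 in treated roots, against 462, 907 and 432 in mock roots. WRKY70 counted 73.6, 52.0 and 64.1 in treated roots, against 74.1, 126 and 67.0 in mock roots. In all 3 genes replicate 2 was the high mock library, and the other libraries of the 2 groups overlapped. The log2 differences were -0.49, -0.33 and -0.44, with limma adjusted p of 0.937, 0.921 and 0.921. Without mock replicate 2 of 24 h they were 0.13, 0.01 and -0.16.

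WRKY78 counted 550, 587 and 606 in treated roots at 24 h, against 525, 553 and 569 in mock roots. Its log2 difference was 0.08, with a 95% interval from -0.12 to 0.28. WRKY30 had 4 to 8 reads per library in treated and 5 to 30 in mock roots at 24 h, where the 30 reads came from the library of 20301774 reads.

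**Figure D2:**
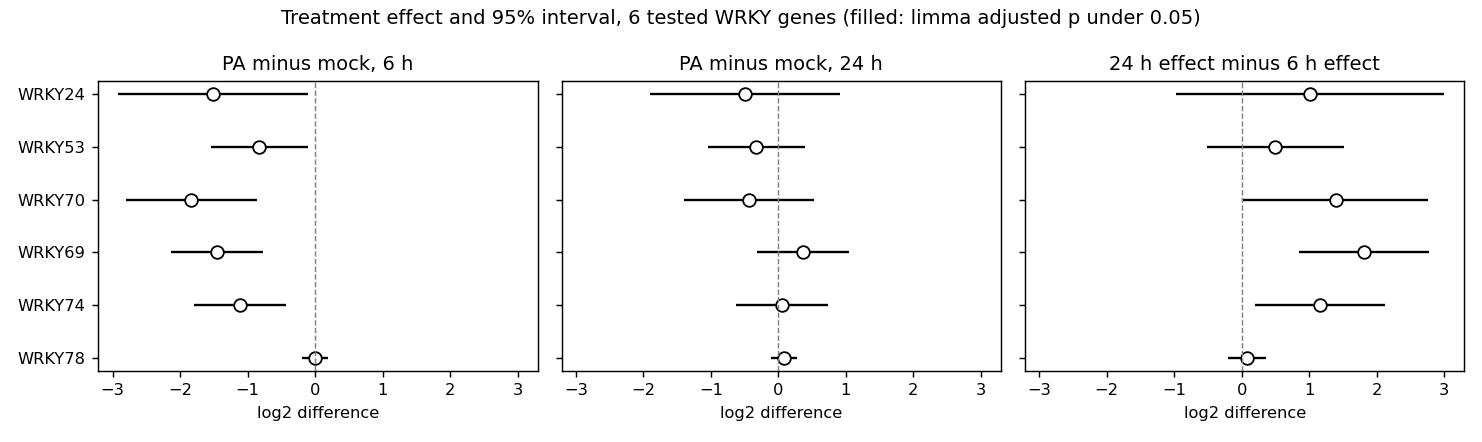
Log2 differences (x axis) between piperonylic acid (PA) and mock roots at 6 h and at 24 h, and the 24 h effect minus the 6 h effect, for the 6 tested genes. Points are limma estimates on log2(normalised count + 2) and bars are 95% intervals. No point is filled, because none passed over all genes tested. The 6 h estimates of 5 genes lie between -1.83 and -0.83.

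Whether the effect differed between the times was tested in the same fit. The effect at 24 h minus that at 6 h was positive in 6 of 6 tested genes, with a median of 1.09 against -0.01 over all genes tested. None passed, where 0.552% of all genes tested did, and edgeR likewise called none. WRKY69 had the largest difference of effects, 1.82 ± 0.43 (SE), at a limma adjusted p of 0.124. Its effects were 0.37 at 24 h and -1.45 at 6 h. Its treated libraries lay entirely above the mock libraries at 24 h and entirely below them at 6 h, as in 0.781% of all genes tested. For WRKY70 the difference of effects was 1.39 ± 0.60 (SE) and for WRKY74 1.16 ± 0.43 (SE), with limma adjusted p of 0.443 and 0.349. With the replicate block by title numbers, WRKY69 and WRKY74 passed, at adjusted p of 0.0116 and 0.0388, and without treated replicate 3 of 6 h the same 2 genes passed. With the source-name block neither passed, at adjusted p of 0.224 for WRKY69 and 0.662 for WRKY74. Libraries with the same title number deviated together at 6 h but not at 24 h. The title-number block thus rests on a pairing seen at 1 of the 2 times and chosen from the same values.

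**Figure D3:**
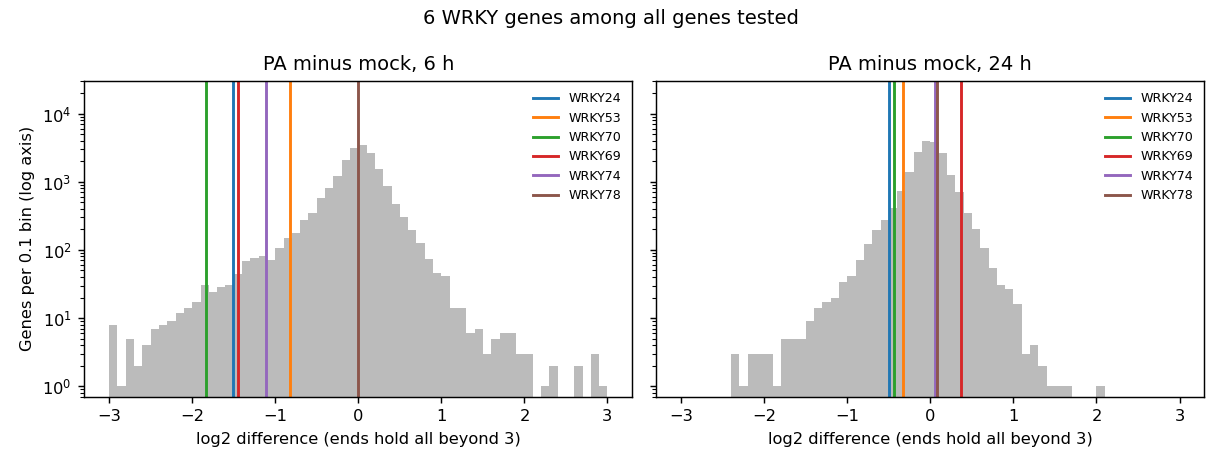
Distribution of log2 differences between piperonylic acid (PA) and mock roots over 19207 tested genes (bars, number of genes per 0.1 on a log axis) at 6 h and 24 h, with the 6 WRKY genes as vertical lines. At 6 h WRKY70 lies at -1.83 and WRKY78 at 0.00, and at 24 h the 6 genes lie between -0.49 and 0.37.

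The largest differences among the 4 groups were between the times. The deposited values had been scaled within each time, so reads were recovered and rescaled over all 12 libraries for this comparison. The labels give plant ages that differ by 1 day between the times. The time of day at collection may differ as well under the 12 h of light, and its part was not tested. Neither plant age nor time of day can be told apart from the time since the spray. In treated roots WRKY53, WRKY69 and WRKY74 were lower at 24 h than at 6 h by limma, 3 of 6 tested genes. Of the 19207 genes tested, 1368 were lower there, and 13.9% changed in either direction. In mock roots WRKY53, WRKY70, WRKY69 and WRKY74 were lower at 24 h, 4 of 6. Of all genes tested, 1754 were lower there, and 17.2% changed in either direction. DESeq2 also called WRKY70 in treated and WRKY24 in mock roots, at adjusted p of 0.00406 and 0.047. It called 2605 of all genes tested in treated and 3253 in mock roots.

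WRKY69 had the lowest estimate in mock roots. On the common scale it counted 89.4, 102 and 96.9 in treated roots at 24 h, against 164, 245 and 486 at 6 h. The log2 difference was -1.47 ± 0.31 (SE), at a limma adjusted p of 0.00956. In mock roots it counted 69.4, 75.9 and 75.6 at 24 h, against 662, 736 and 824 at 6 h. There the log2 difference was -3.29 ± 0.31 (SE), or 9.79-fold lower at 24 h, at a limma adjusted p of 4.55e-05. The libraries of the 2 times were separate in treated and in mock roots.

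WRKY70 had a log2 difference of -1.47 ± 0.43 (SE) in treated roots, at a limma adjusted p of 0.0525. In mock roots it fell by 2.87 ± 0.43 (SE) on the log2 scale, to a common-scale mean of 80.1 ± 28.9 at 24 h, against 599 ± 208 at 6 h (SD, n = 3 each), at a limma adjusted p of 0.00148. WRKY74 had log2 differences of -1.13 ± 0.30 (SE) in treated and -2.30 ± 0.30 (SE) in mock roots, and both passed limma, at adjusted p of 0.0348 and 0.000526. WRKY53 had log2 differences of -1.28 ± 0.32 (SE) in treated and -1.78 ± 0.32 (SE) in mock roots, and both passed limma as well, at adjusted p of 0.0275 and 0.00419. WRKY24 had log2 differences of -0.79 ± 0.61 (SE) in treated and -1.81 ± 0.61 (SE) in mock roots, and neither passed limma, at adjusted p of 0.485 and 0.0837.

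In treated roots the WRKY69 call held in each of 12 refits without 1 library, the WRKY53 call in 7 and the WRKY74 call in 5. With the treated libraries fitted alone, only WRKY53 passed limma, and WRKY69 and WRKY74 did not, at adjusted p of 0.092 and 0.0964. The WRKY53 call was lost without treated replicates 2 and 3 of 6 h and without any of the 3 treated replicates of 24 h in turn, at adjusted p up to 0.0876. The WRKY74 call was lost without treated or mock replicate 2 of 6 h, any treated replicate of 24 h or mock replicate 1 or 3 of 24 h, at adjusted p up to 0.11. The 4 mock calls held in each of the 12 refits, and WRKY24 joined them without mock replicate 2 of 24 h.

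**Figure D4:**
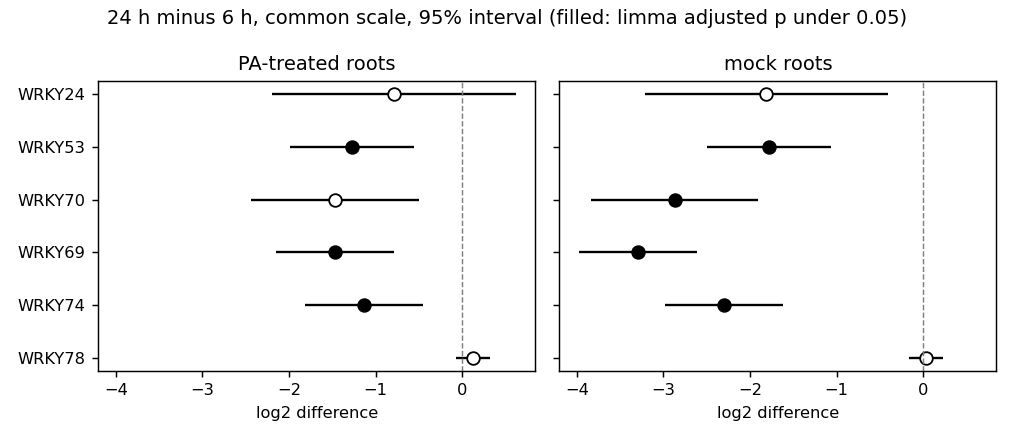
Log2 differences between 24 h and 6 h (x axis) in piperonylic acid (PA) treated and in mock roots for the 6 tested genes, from reads rescaled over all 12 libraries. Bars are 95% intervals, and filled points passed a limma adjusted p of 0.05. In mock roots the 4 filled points lie between -3.29 and -1.78.

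The treated effect at 6 h and the change of mock roots over time share the 6 h mock libraries, and their values are given side by side without a test of their likeness. The log2 values, treatment effect first, were -1.45 and -3.29 for WRKY69, -1.83 and -2.87 for WRKY70, and -1.11 and -2.30 for WRKY74. They were -0.83 and -1.78 for WRKY53, -1.51 and -1.81 for WRKY24, and 0.00 and 0.04 for WRKY78. In order of mean level, WRKY53, WRKY70, WRKY69 and WRKY74 were highest in 6 h mock roots and next in 6 h treated roots, and the 24 h groups were lowest. The 2 groups of 24 h overlapped each other in WRKY53, WRKY70 and WRKY74, and in WRKY53 and WRKY70 the 24 h mock group also overlapped the 6 h treated group through replicate 2. For WRKY24 the 3 lower groups overlapped. WRKY78 had common-scale means from 482 to 525 in the 4 groups, and all 4 ranges overlapped.

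The spread between libraries also differed among the groups. Over the 5 genes that were low in treated roots at 6 h, the coefficient of variation of the deposited values was 30.1% to 58.0% in treated and 11% to 50.1% in mock roots at 6 h. It was 6.88% to 29.6% in treated and 5.16% to 82.4% in mock roots at 24 h, where WRKY24 had the highest. WRKY78 stayed between 4.05% and 9.70% in the 4 groups.

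The 5 genes varied together from library to library. Over the 12 libraries on the common scale, pairs among them had Pearson correlations of log2 values from 0.792 to 0.984, which include the differences between the groups. With the group means subtracted the values were 0.529 to 0.985, highest between WRKY70 and WRKY74 and next, at 0.961, between WRKY24 and WRKY53. These are descriptions over 12 libraries that share depth and scaling. WRKY78 correlated with the 5 genes at -0.281 to -0.115 over all libraries, and at 0.389 to 0.490 with the group means subtracted.

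**Figure D5:**
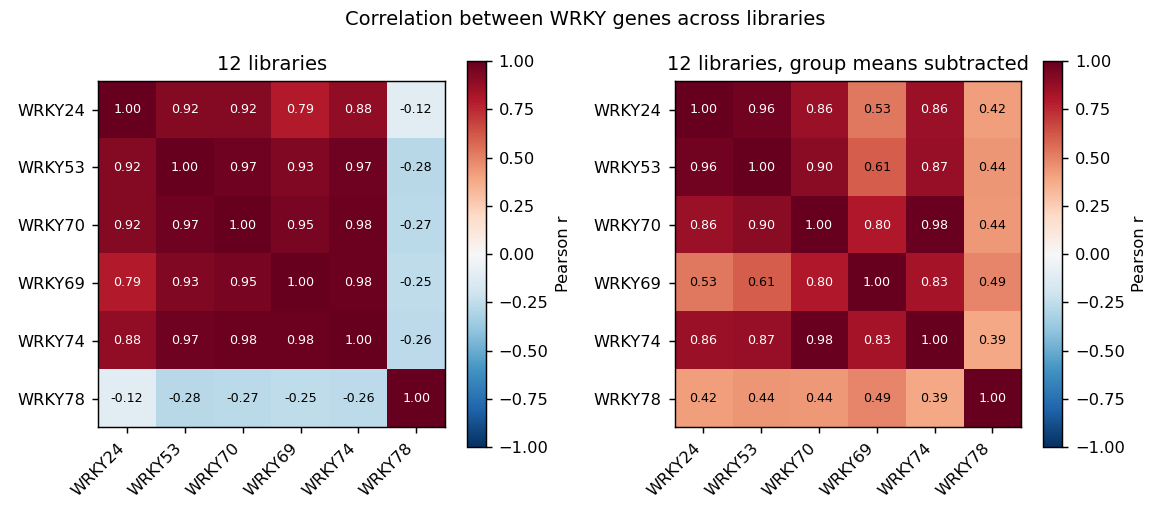
Pearson correlations of log2 common-scale counts between the 6 tested WRKY genes over 12 libraries, as measured (left) and with the mean of each group subtracted (right). WRKY24, WRKY53, WRKY70, WRKY69 and WRKY74 form a block of positive values, and WRKY78 lies between -0.281 and -0.115 with them on the left.

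By the same correlation over 12 libraries, the member most like WRKY53 was WRKY70, at 0.974, and the member most like both WRKY70 and WRKY69 was WRKY74, at 0.984 and 0.980. Among all other genes, Os02g0181300, at 0.992, and Os02g0324700, also at 0.992, were most like WRKY53. The first is on the list of other WRKY genes and averaged 702 ± 444 normalised counts in treated and 2336 ± 763 in mock roots at 6 h (SD, n = 3 each). For WRKY78 the most alike were Os08g0386900 and Os08g0450800, at 0.859 and 0.850.

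The 3 gene lists placed the members beside related genes. Their identifiers were written from memory with no annotation to compare them with, so each list is known by its intended content. Of 28 listed other WRKY genes, 25 were tested. At 6 h, 0 passed limma or edgeR while 4 of 25 had an unadjusted limma p under 0.05, a share near the 14.8% of all genes tested. DESeq2 and the title-number block each called 2, and the refit without treated replicate 3 of 6 h called 4. Of the 19207 genes tested, these 3 settings called 679, 802 and 741. At 6 h 16 of the 25 had negative log2 differences with a median of -0.13, against 0.01 over all genes tested. At 24 h, 0 passed limma or edgeR, 2 had an unadjusted limma p under 0.05 and the median was 0.02. Between the times the list fell in part, with 11 of 25 lower in treated and 10 of 25 lower in mock roots at 24 h and none higher. Of the 19207 genes tested, 1368 were lower in treated and 1754 were lower in mock roots at 24 h. The lowest of the 10 in mock roots was Os01g0821600, which averaged 31.1 ± 6.94 normalised counts at 24 h, against 334 ± 62.3 at 6 h in mock roots (SD, n = 3 each), with a log2 difference of -3.64 ± 0.35 (SE) on the common scale and a limma adjusted p of 2.86e-05.

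The list of MAP kinase cascade genes, enzymes of the kind that phosphorylate group I factors, had 8 tested genes. At 6 h, 7 of 8 had negative log2 differences, with a median of -0.16, and 0 passed limma or edgeR, while 3 had an unadjusted limma p under 0.05, which 14.8% of all genes tested had. DESeq2, the title-number block and the refit without treated replicate 3 of 6 h each called 2, and the source-name block called 0. Of the 19207 genes tested, these settings called 679, 802, 741 and 65. At 24 h, 0 passed limma or edgeR, 0 had an unadjusted limma p under 0.05 and the median was -0.12, which was 0.01 without mock replicate 2 of that time. In mock roots 3 were lower at 24 h than at 6 h, among them Os02g0787300 at a log2 difference of -1.56 ± 0.17 (SE) and a limma adjusted p of 2.22e-05. In treated roots 1 of the 8 was lower at 24 h. Over the 19207 genes tested, 1754 were lower in mock and 1368 in treated roots.

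The brassinosteroid list, of hormone synthesis and signalling genes, had 8 tested genes. At 6 h, 7 of 8 had negative log2 differences, with a median of -0.22. An unadjusted limma p under 0.05 was found in 4, of which 3 were lower and 1 higher, against 14.8% of all genes tested. The list held the 1 gene of the 3 lists that passed the limma fit without a block under treatment. Of all genes tested, 1.66% passed at 6 h and 0.552% for the difference of effects. Os07g0580500 counted 264, 245 and 313 in treated roots at 6 h, against 416, 409 and 443 in mock roots. It fell by 0.63 ± 0.11 (SE) on the log2 scale, with a limma adjusted p of 0.0131. At 24 h it counted 325, 368 and 350 in treated roots, against 340, 346 and 292 in mock roots, and the groups overlapped. The difference of its effects, 24 h minus 6 h, was 0.72 ± 0.15 (SE), at a limma adjusted p of 0.0435. The 6 h call held in 9 of 12 refits, and was lost without mock replicate 3 or treated replicate 1 or 2 of 6 h, at adjusted p up to 0.0882. The source-name block also lost it, at 0.076. The difference of effects passed in 2 of 12 refits. The other 7 genes of the list did not pass at either time by limma.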

How the data were processed

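Root RNA was profiled with a QuantSeq 3′ mRNA kit from 2 µg per library, per the labels' protocols. Per the submitters' processing notes, STAR 2.6.1d, Trimmomatic 0.38, FastQC 0.11.8 and DESeq2 were used. A genome build and a read counter were not given in the sources used here. Per gene, a normalised signal was deposited by the authors. At least 99.985% of the values above 0 in each library were whole multiples of 1 read within 0.01, so reads were recovered by division, and the scaling equalled median-of-ratios factors set within each time. Over all genes tested, the median of mock 24 h minus 6 h was 0.30 (log2) as deposited and 0.01 once rescaled over 12 libraries. For the library PA replicate 2 at 6 h the value of 1 read lay near 1, so that its recovery rests on the same multiples but is harder to tell from rounding.

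Groups and replicate numbers came from sample titles. In R 4.3.3, limma 3.58.1 fitted 4 group means to log2(normalised count + 2), using its trend and robust options, for genes with a mean of at least 10, and p was adjusted by Benjamini-Hochberg over all 19207 genes tested at 0.05. Fold changes of low genes are understated on this scale. Recovered reads went into DESeq2 1.42.0 and edgeR 4.0.16 as alternatives, and the fit was tested on simulated data. At 6 h it recovered 58% of simulated 2-fold and 85% of 4-fold changes, with 11 false calls among 154. At 24 h it recovered 61% and 93%, with 10 false calls among 164. The simulation changed genes picked at random and gave each gene the same dispersion in all 4 groups. The spread of the members differed among the groups, so these rates are not those of the members. All 7 members are named, and of 3 gene lists those passing limma. The members and lists were chosen with earlier results of these data known. At 24 h same-numbered libraries correlated at -0.187, 0.0505 and 0.0212 and were not taken as pairs. No label ties the libraries to separate cultures, and a p-value here reflects only their own spread, which may be technical. No sequence is printed, since no sequence table was used here.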

Additional observations from a re-analysis of the deposited data

Results flagged for a closer look

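For WRKY69 the libraries separated in opposite directions at the 2 times, while neither effect passed limma, at adjusted p of 0.909 at 24 h and 0.0503 at 6 h. All 3 treated libraries were above the mock libraries at 24 h and all 3 were below them at 6 h. The effect at 24 h minus that at 6 h was 1.82 on the log2 scale. Its adjusted p was 0.124 by limma, 0.208 by edgeR and 0.00275 by DESeq2. With the title-number replicate block the limma adjusted p was 0.0116, and with the source-name block 0.224. Over the 12 refits without 1 library the difference of effects ran from 1.46 to 2.24. It passed limma in 1 of the 12, without treated replicate 3 of 6 h, and the adjusted p reached 0.296.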

How the results depend on the processing

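The number of members called at 6 h was 0, and it was 3 with DESeq2 and with the title-number replicate block, 2 with sample quality weights, 1 with a pseudocount of 8 or a minimum mean of 50, and 0 to 3 without 1 library. All genes called at 6 h numbered 319 and were 679 with DESeq2, 802 and 65 with the title-number and source-name replicate blocks, 152 with the libraries compared alone, 686 with weights and 4 (without mock replicate 3 of 6 h) to 741 (without treated replicate 3 of 6 h) when 1 library was left out. At 24 h the 22 calls became 53 with DESeq2, 0 with the source-name block (1330 genes at an unadjusted limma p under 0.05), 40 with weights and 3 (without mock replicate 2 or 3 of 24 h) to 30 when 1 library was left out. For the difference of effects, members called were 0 and became 1 with DESeq2, 2 with the title-number block and 0 to 2 without 1 library. All genes called there were 106 and became 342 with DESeq2, 376 and 25 with the 2 blocks, 239 with weights and 38 (without treated replicate 2 of 24 h) to 471 (without treated replicate 3 of 6 h) when 1 library was left out. Between the times, the deposited scale gave 7187 genes in treated and 7943 in mock roots, against 2677 and 3310 on the common scale, and added WRKY78 to the members called in both, while WRKY74 was lost in treated roots, at a limma adjusted p of 0.0535. Members called in treated roots were 3, and became 1 (WRKY53) with the libraries compared alone and 1 to 4 without 1 library.

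Direction turned for 4 estimates of members, none of which passed. WRKY78 at 6 h was -0.002 with edgeR, -0.007 with weights and -0.065 to 0.075 without 1 library. At 24 h WRKY74 was -0.057 with the source-name block and -0.061 to 0.23 without 1 library, WRKY24 ran from -0.85 to 0.13 and WRKY53 from -0.52 to 0.013. No replicate block could be fitted to the differences between times, since each block lies within a time.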
